A study of Mus musculus with 9 samples.

Results

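The 10 genes of fatty acid synthesis described here encode the enzymes that supply its substrates (Acly and Me1), build the chain (Acaca and Fasn), desaturate it (Scd1 and Scd2) and elongate it (Elovl5 and Elovl6), together with the transcription factor gene Srebf1 and the lipogenic protein gene Thrsp. They were picked by symbol from the 18484 genes listed for each tumour, and all 10 were found. They were set beside adipocyte genes and milk genes, because mammary fat pad, milk-secreting alveoli and tumour cells can each carry these enzymes. The tumours were 9 mammary tumours of BlgCre-NeuKI mice of mixed FVB and C57Bl6 background, each giving 1 RNA-seq library. In these animals an activated Neu (Erbb2) allele in the endogenous Erbb2 locus is switched on by Cre under the beta-lactoglobulin promoter, which is active mainly in luminal cells, and no tumour without this allele was included.

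The 5 tumours labelled high-amplified at the Erbb2 locus were all adenocarcinomas of no special type, AC(NST). Of these, MS1155.3 and MS1218.2 arose in parous animals and MS1163.2, MS1163.1 and MS1213.1 in virgins. Parous animals gave all 3 not/low-amplified tumours, which comprised the adenosquamous carcinomas (ASQC) MS1210.1 and MS1349.1 and the AC(NST) MS1166.1. The remaining tumour, MS1156.1, was a sarcoma from a parous mouse. Amplification, parity and histotype therefore overlap in part in these tumours, and their effects can be separated only in part. MS1163.1 and MS1163.2 carry the same mouse number in the labels, and the study writes of MS1163 as a single animal. The main tests counted them as separate tumours. The p-values therefore measure the spread between tumours, not all of which appear to be from separate animals.

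Lipogenic cells turn citrate from the mitochondria into acetyl-CoA and malonyl-CoA, from which fatty acid synthase makes palmitate with NADPH as the reducing agent, and desaturases and elongases then modify the product. SREBP-1, the product of Srebf1, is the main transcriptional activator of these enzymes. The pathway is low in most resting adult tissues, is high in liver, in fat and in the lactating mammary gland, and is often raised in carcinomas. Values below are normalized counts, that is reads per gene divided by a scaling factor of the tumour, unless another scale is named.

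Of the 10 genes, 4 lie on chromosome 11, which also holds Erbb2 and 8.09% of all listed genes. In GRCm38 coordinates of the GENCODE M21 annotation, Acly spans chr11:100476353-100528000 at 2.04 Mb from Erbb2, Acaca spans chr11:84129672-84401651 at 14.0 Mb, Fasn spans chr11:120805846-120824547 at 22.4 Mb and Srebf1 spans chr11:60199089-60222581 at 38.2 Mb. Scd1 (chr19:44394455-44407879) and Scd2 (chr19:44293674-44306864) are neighbours separated by 87590 bases. Elovl5 (chr9:77917364-77984519) and Me1 (chr9:86581371-86695953) share chromosome 9, Elovl6 spans chr3:129532355-129638495 and Thrsp spans chr7:97412938-97417730. Srebf1 shares 109 of its 5634 exonic bases with Rai1 on the opposite strand, so a small part of its reads may belong to that gene. Of the 76-base windows in their exons, 3.13% of those of Scd1 and 1.74% of those of Scd2 also occur in a gene of the stearoyl-CoA desaturase family. For the other members this share was 0% within the genes compared, which were the members and the Scd copies.

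RefSeq promoter windows (GRCm38.p6, 250 bases before to 50 after the transcription start) were found for 8 of the 10 genes, in 11 windows. The windows of Fasn, Acly and Thrsp are printed because these genes were highest in the same tumour, MS1349.1, and their windows hold matches to the boxes marked. Acaca was also highest in MS1349.1, and its window (chr11:84195188-84195487, plus strand), which held neither box, is not printed. Capitals mark matches on either strand to the CCAAT box (CCAAT) and the GC box (GGGCGG); the overlapping capitals of Fasn hold a CCAAT match on each strand. The Fasn window is chr11:120824498-120824797, the Acly window chr11:100527951-100528250 and the Thrsp window chr7:97417501-97417800, each read 5′ to 3′ on the minus strand.
Fasn: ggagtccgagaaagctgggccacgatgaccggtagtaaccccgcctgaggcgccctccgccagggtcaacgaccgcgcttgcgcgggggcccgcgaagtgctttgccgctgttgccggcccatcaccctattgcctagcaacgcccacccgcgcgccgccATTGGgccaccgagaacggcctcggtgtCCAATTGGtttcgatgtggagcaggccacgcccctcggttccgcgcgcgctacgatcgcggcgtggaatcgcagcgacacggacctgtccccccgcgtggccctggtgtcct
Acly: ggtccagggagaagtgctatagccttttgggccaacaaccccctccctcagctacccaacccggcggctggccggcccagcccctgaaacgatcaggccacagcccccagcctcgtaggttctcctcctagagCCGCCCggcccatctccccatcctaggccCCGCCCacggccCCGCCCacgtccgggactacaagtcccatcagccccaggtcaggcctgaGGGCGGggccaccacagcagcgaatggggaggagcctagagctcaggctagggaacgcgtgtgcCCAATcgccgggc
Thrsp: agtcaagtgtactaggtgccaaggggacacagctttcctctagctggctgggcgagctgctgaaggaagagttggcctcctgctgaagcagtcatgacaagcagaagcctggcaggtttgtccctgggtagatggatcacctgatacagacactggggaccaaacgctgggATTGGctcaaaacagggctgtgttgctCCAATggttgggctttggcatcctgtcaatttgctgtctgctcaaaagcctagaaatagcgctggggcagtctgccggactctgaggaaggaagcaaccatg
A CCAAT box was present in 7 of the 11 windows (63.6%), against 37.4% of 32817 promoter windows. A GC box was present in 4 of 11 (36.4%), against 35.6%. Fasn held 3 CCAAT matches and no GC box, Thrsp held 2 and no GC box, and Acly held 1 beside 4 GC boxes. The sterol regulatory element TCACNCCAC matched none of the 11 windows and 1.24% of all windows, and the E-box CACGTG matched 1 window, that of Elovl5, and 7.15% of all windows.

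Per kilobase of exon, Scd1 was the most abundant of the 10 in the 8 epithelial tumours, at 4103 ± 2325 normalized counts per kilobase (SD, n = 8). Scd2 followed at 3055 ± 1549, Srebf1 at 2168 ± 1580, Acly at 1958 ± 1215 and Fasn at 1526 ± 886 on this scale. Me1 reached 932 ± 447, Elovl5 511 ± 105, Thrsp 509 ± 794, Acaca 283 ± 138 and Elovl6 123 ± 73.2 normalized counts per kilobase. Each gene differed from the next in this order by less than the larger of their SDs, except Acaca and Elovl6. Elovl5 was the steadiest of the 10, with a 1.86-fold range between its lowest and highest epithelial tumour, and Thrsp the most variable, with a 51.5-fold range. For the other 8 genes this range lay between 4.58-fold (Acaca) and 6.91-fold (Fasn).

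**Figure D1:**
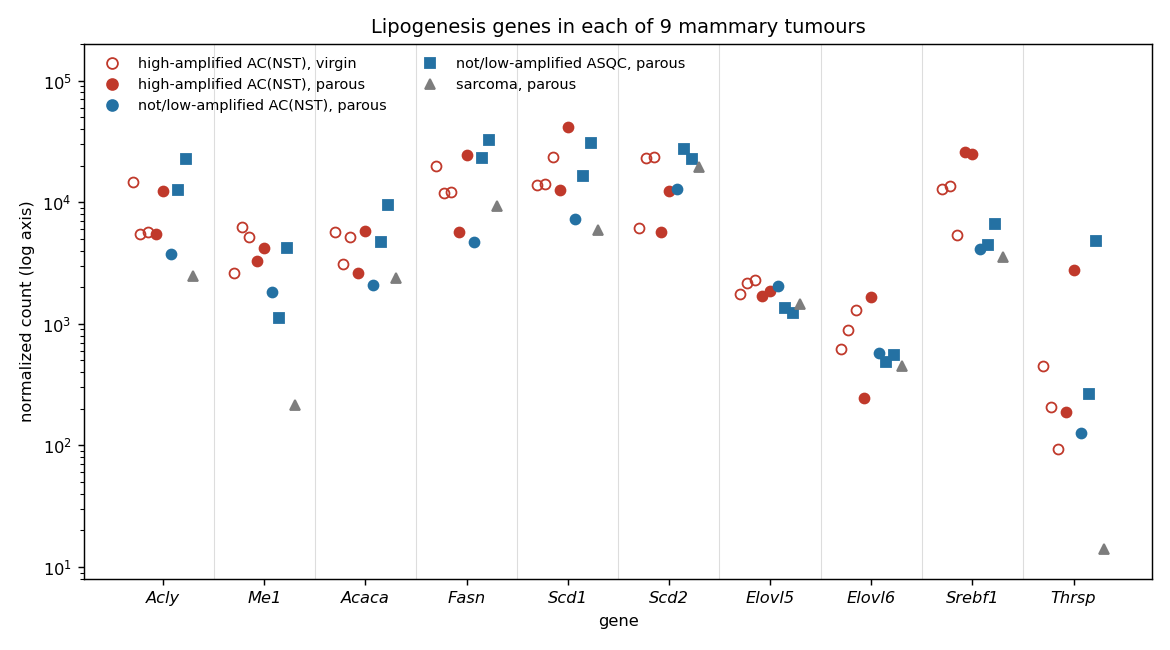
Normalized count (log axis) of each lipogenesis gene in each of 9 tumours, 1 point per tumour; colour gives amplification status, shape the histotype, and open symbols the virgin mice. Acly, Acaca, Fasn and Thrsp peak in the ASQC MS1349.1, and Srebf1 is highest in the parous high-amplified tumours MS1218.2 and MS1155.3.

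Acly differed more between tumours of the same group than between groups. It encodes ATP-citrate lyase, the source of cytosolic acetyl-CoA, and stood at 5527 in MS1218.2, 12349 in MS1155.3, 5738 in MS1163.2, 14644 in MS1213.1 and 5487 in MS1163.1. These are the tumours with high amplification; among those not or little amplified it stood at 22568 in MS1349.1, 12609 in MS1210.1 and 3779 in MS1166.1. The not/low-amplified group thus held both the highest and the lowest epithelial value of Acly, and the groups overlapped. With edgeR's quasi-likelihood test the log2 fold change, high-amplified minus not/low-amplified, was -0.56 ± 0.58 (SE; adjusted p = 0.591). Grb7, a neighbour of Erbb2 that serves as a check of the amplification labels, rose with a log2 fold change of 3.82 ± 0.45 (adjusted p = 0.0175) in the same fit. The Grb7 call held in 12 of 16 alternatives. It was lost without MS1210.1, with parity as a covariate, in parous tumours alone and without MS1163.2 and MS1349.1. Of the 3 locus genes Erbb2, Grb7 and Mien1, edgeR called only Grb7. The estimate for Acly, 2.04 Mb from Erbb2, was 0.12 without MS1349.1.

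Me1, which encodes the malic enzyme that yields cytosolic NADPH, followed another order. It stood at 3274 in MS1218.2, 4226 in MS1155.3, 5186 in MS1163.2, 2609 in MS1213.1 and 6253 in MS1163.1, and at 4208 in MS1349.1, 1120 in MS1210.1 and 1819 in MS1166.1. The tumours MS1163.1 and MS1163.2 of one mouse number were highest, and MS1210.1 and MS1166.1 were lowest, with MS1349.1 inside the high-amplified range. By amplification its log2 fold change was 0.86 ± 0.47 (SE; edgeR adjusted p = 0.298).

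The enzymes that build the chain were highest in MS1349.1 and lowest in MS1166.1. Acaca, whose product acetyl-CoA carboxylase makes malonyl-CoA, stood at 2633 in MS1218.2, 5834 in MS1155.3, 5143 in MS1163.2, 5730 in MS1213.1 and 3106 in MS1163.1, and at 9484 in MS1349.1, 4722 in MS1210.1 and 2070 in MS1166.1. Fasn, the gene of fatty acid synthase, stood at 5668 in MS1218.2, 24249 in MS1155.3, 12164 in MS1163.2, 19703 in MS1213.1 and 11937 in MS1163.1, and at 32350 in MS1349.1, 22884 in MS1210.1 and 4678 in MS1166.1. Both ASQC tumours lay among the 3 highest for Fasn, with MS1155.3 between them, and the not/low-amplified AC(NST) was lowest at 6.91-fold below MS1349.1. The group means of Fasn were 14744 ± 7277 (SD, n = 5) in high-amplified and 19971 ± 14064 (SD, n = 3) in not/low-amplified tumours, a difference smaller than either SD. Fasn had a log2 fold change by amplification of -0.43 ± 0.63 (SE; edgeR adjusted p = 0.711) and Acaca of -0.27 ± 0.49 (adjusted p = 0.767).

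Scd1 and Scd2 encode stearoyl-CoA desaturases, which place the double bond of oleate and palmitoleate, and their order across tumours differed. Scd1, the form of liver, fat and skin, stood at 12541 in MS1218.2, 41867 in MS1155.3, 23744 in MS1163.2, 13821 in MS1213.1 and 14153 in MS1163.1, and at 30617 in MS1349.1, 16522 in MS1210.1 and 7318 in MS1166.1. Scd2, the form best known from brain, stood at 5654 in MS1218.2, 12375 in MS1155.3, 23541 in MS1163.2, 6118 in MS1213.1 and 23254 in MS1163.1, and at 22518 in MS1349.1, 27205 in MS1210.1 and 12863 in MS1166.1. Scd1 was highest in MS1155.3 and Scd2 in MS1210.1, and MS1213.1 and MS1218.2 stood apart from the other epithelial tumours as the lowest for Scd2. By amplification the log2 fold change was 0.23 ± 0.58 for Scd1 (edgeR adjusted p = 0.831) and -0.55 ± 0.55 for Scd2 (adjusted p = 0.577).

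The desaturase that predominated per kilobase of exon changed from tumour to tumour. Scd1 exceeded Scd2 by 3.78-fold in MS1155.3, 2.52-fold in MS1213.1, 2.48-fold in MS1218.2, 1.52-fold in MS1349.1 and 1.13-fold in MS1163.2. The ratio of Scd1 to Scd2 per kilobase fell below 1 in MS1163.1 (0.680), MS1210.1 (0.678) and MS1166.1 (0.635), and was 0.339 in the sarcoma. High-amplified tumours supplied the 3 highest ratios, but the groups overlapped, and an exact two-sided permutation test on the log2 ratio gave p = 0.179 over 56 splits (n = 5 and 3).

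Elovl5 was the steadiest member and Elovl6 the least abundant per kilobase. Elovl5, which elongates polyunsaturated fatty acids, stood at 1699 in MS1218.2, 1857 in MS1155.3, 2305 in MS1163.2, 1771 in MS1213.1 and 2146 in MS1163.1, and at 1236 in MS1349.1, 1353 in MS1210.1 and 2044 in MS1166.1. Both ASQC tumours were below all 6 AC(NST) tumours for this gene, the reverse of their place for Fasn. Elovl6, which elongates palmitate, stood at 245 in MS1218.2, 1669 in MS1155.3, 1287 in MS1163.2, 623 in MS1213.1 and 892 in MS1163.1, and at 559 in MS1349.1, 481 in MS1210.1 and 571 in MS1166.1. MS1155.3 was again highest, and the not/low-amplified tumours lay within a narrow band inside the high-amplified range. The log2 fold change by amplification was 0.36 ± 0.24 for Elovl5 (edgeR adjusted p = 0.397) and 0.83 ± 0.52 for Elovl6 (adjusted p = 0.364).

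Srebf1 had the lowest p of the members by amplification. It stood at 25763 in MS1218.2, 25074 in MS1155.3, 5362 in MS1163.2, 12789 in MS1213.1 and 13492 in MS1163.1, and at 6674 in MS1349.1, 4435 in MS1210.1 and 4116 in MS1166.1. Of the high-amplified tumours, only MS1163.2 fell within the range of the not/low-amplified tumours, and the parous MS1218.2 and MS1155.3 were highest. The means were 16496 ± 8749 (SD, n = 5) and 5075 ± 1394 (SD, n = 3), and the log2 fold change was 1.72 ± 0.54 (SE; edgeR unadjusted p = 0.0105, adjusted p = 0.118), so the gene was not called. DESeq2 called it (log2 fold change 1.70 ± 0.51, adjusted p = 0.0133), and an exact two-sided permutation test over the 56 splits gave p = 0.0714 (n = 5 and 3), where a single split is worth 0.0179. Over the 16 alternatives its log2 fold change was above 0 and did not exceed 2.38, with an adjusted p between 0.0133 and 0.313. Of those alternatives, only DESeq2 called it.

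High Srebf1 did not go with high levels of the enzymes in every tumour. MS1218.2 had the highest Srebf1 of all and the second lowest Fasn, whereas MS1155.3 had almost the same Srebf1 and a Fasn of 24249. MS1210.1 had Fasn at 22884 with Srebf1 at 4435. The Pearson correlation of Srebf1 with Fasn over log2 values of the 8 tumours was 0.0013, given as a description, since the genes were read from the same libraries. MS1218.2 also had the highest summed macrophage markers, 41224 over 6 genes against 3115 to 12173 in the other epithelial tumours, and it is the tumour that the study's methods set apart as having a lower tumour cell purity. In bulk tumour RNA, fewer cells of a type and less RNA per cell cannot be told apart, and the part of tissue composition in the level of Srebf1 or Fasn was not tested.

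Thrsp, which encodes the thyroid hormone responsive Spot 14 protein of lipogenic tissues, was the most uneven member. It stood at 190 in MS1218.2, 2773 in MS1155.3, 93.2 in MS1163.2, 453 in MS1213.1 and 209 in MS1163.1, and at 4798 in MS1349.1, 267 in MS1210.1 and 127 in MS1166.1. MS1349.1 and MS1155.3 were far above the other 6 tumours, which did not exceed 453. Its log2 fold change by amplification was -1.22 ± 1.29 (edgeR adjusted p = 0.598), and DESeq2 gave no adjusted p for this gene.

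The question that the groups pose is whether lipogenic genes differ with the amplification of Erbb2, with the histotype or with pregnancy. Of the 18484 genes, 14007 passed the filter (10 counts or more in 3 or more epithelial tumours), and all 10 members were among them. By amplification edgeR called 0 of the 10 members, against 0.921% of all genes tested. At an unadjusted p under 0.05 it had 1 of 10 members, Srebf1, beside 3199 of the 14007 genes. DESeq2, run without the filter, called 1 of 10 members, Srebf1, beside 1587 of the 18484 genes. The log2 fold change was above 0 for 5 members and below 0 for 5, with a median of -0.02 beside 0.02 over all genes tested. In none of the 10 did the groups fail to overlap, against 15.6% of all genes. The fold changes of Acly, Acaca, Fasn and Thrsp turned on a single tumour: without MS1349.1 they were 0.12, 0.42, 0.11 and 1.94, all above 0.

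By histotype, the ASQC tumours had more Acly, Fasn and Acaca on average and less Srebf1 and Elovl5, but no member passed the test. edgeR called 0 of 10 members, against 0.236% of all genes, with 0 members among the 1221 genes at an unadjusted p under 0.05, and DESeq2 called 0 members among 518 genes. The log2 fold change, ASQC minus AC(NST), was 1.98 ± 1.26 for Thrsp, 1.15 ± 0.56 for Acly, 1.08 ± 0.63 for Fasn, 0.84 ± 0.60 for Scd2 and 0.80 ± 0.48 for Acaca. It was -1.38 ± 0.78 for Srebf1, -0.75 ± 0.62 for Elovl6, -0.60 ± 0.27 for Elovl5 and -0.54 ± 0.60 for Me1, with edgeR adjusted p from 0.576 to 0.927 over the 10 members. The groups did not overlap for 1 member, Elovl5, against 10.3% of all genes, with means of 1295 ± 82.7 (SD, n = 2) and 1970 ± 234 (SD, n = 6). The exact two-sided permutation p for Elovl5 was 0.0714 over 28 splits (n = 2 and 6). Without MS1349.1 the fold change of Thrsp by histotype was -1.28 and that of Scd1 -0.20, both of opposite sign to those with it.

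By parity, edgeR called 0 of 10 members, and 0% of all genes. At an unadjusted p under 0.05 there were 0 members and 1984 genes, and DESeq2 called 0 members and 511 genes. The member furthest from 0 was Thrsp, with a log2 fold change, virgin minus parous, of -2.69 ± 1.31 (SE; edgeR adjusted p = 0.375). Its values were 93.2 to 453 in the 3 virgin tumours and 127 to 4798 in the 5 parous tumours, where MS1155.3 and MS1349.1 set the upper end. The other 9 members lay between -0.39 (Acly) and 0.67 (Me1), with edgeR adjusted p from 0.518 to 0.949. No member's groups were free of overlap, against 9.25% of all genes.

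**Figure D2:**
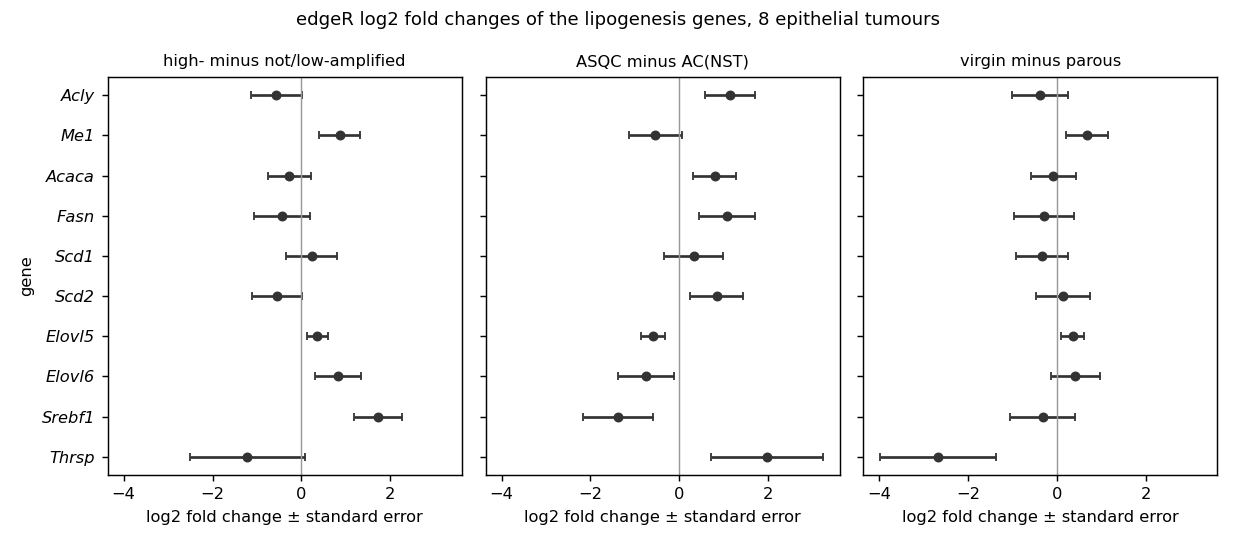
edgeR log2 fold change of each lipogenesis gene (points) with its standard error (bars) in 3 comparisons among 8 epithelial tumours. By amplification the bars of Srebf1, Me1, Elovl6 and Elovl5 are clear of 0 on the positive side, and the widest bars belong to Thrsp; no member was called.

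Rather than dividing by group, Fasn, Acaca and Acly ranked the tumours alike. MS1349.1 was the highest epithelial tumour for 4 of the 10 members, Acly, Acaca, Fasn and Thrsp, against 8.16% of all genes tested. MS1166.1 was the lowest for 5 of the 10, Acly, Acaca, Fasn, Scd1 and Srebf1, against 20.8% of all genes. These are descriptions of single libraries, chosen after their values were known. Summed over the 10 members, the counts were 135011 in MS1349.1, 132275 in MS1155.3, 91597 in MS1210.1 and 39385 in MS1166.1, and between 63194 and 84564 in the other 4 epithelial tumours. As a share of all reads, the 10 genes took 0.806% in MS1155.3 (Wilson 95% interval 0.802 to 0.811) and 0.217% in MS1166.1 (0.215 to 0.219); such intervals cover counting error only.

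Over log2 values in the 8 tumours, Acaca (Pearson r = 0.925) and Acly (r = 0.919) were the 10th and 11th of 14006 genes in likeness to Fasn. Scd1 came 156th (r = 0.770) and Thrsp 249th (r = 0.741), while Me1 (r = 0.08), Scd2 (r = 0.37), Elovl6 (r = 0.38) and Elovl5 (r = -0.56) did not follow Fasn. The genes most like Fasn were Mast4 (r = 0.962), Plagl2 (r = 0.957), Trpv3 (r = 0.952), Trp63 and Rcor1 (r = 0.945). Trp63 encodes p63, the transcription factor of basal and squamous epithelium, and Trpv3 a keratinocyte ion channel. Trp63 was highest in the ASQC tumours MS1349.1 (1325) and MS1210.1 (1142) and in MS1155.3 (743). These 3 tumours were also highest for Fasn, which the choice of Trp63 by its likeness to Fasn favours. The genes most like Scd1 were Tgoln1 (r = 0.937), Rgs9 (r = 0.933), 2610305D13Rik (r = 0.915), Clca2 (r = 0.905) and Atp7a (r = 0.899). These correlations rest on the same 8 libraries, which also differ in tissue composition, and no test was attached.

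The level of Fasn was then set beside adipocyte and milk genes, tumour by tumour. The summed count of 10 defining adipocyte markers was 700 in MS1218.2, 1699 in MS1155.3, 5923 in MS1163.2, 1193 in MS1213.1 and 578 in MS1163.1, and 4261 in MS1349.1, 352 in MS1210.1 and 353 in MS1166.1. Adipocyte markers were thus highest in MS1163.2 and MS1349.1. A further 6 adipocyte genes were set apart as shared with other cells. With them the 16 genes summed to 10858 in MS1349.1, 9004 in MS1163.2, 2057 in MS1210.1 and 1818 in MS1166.1. The order at both ends thus depends on the genes summed. Below, the adipocyte sum is that of the 10 defining markers. MS1163.2 had 16.8-fold the adipocyte sum of MS1210.1 but 0.532-fold its Fasn.

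MS1210.1 was at rank 3 of 8 for Fasn and had the lowest adipocyte sum. Of the 10 markers, Cidec and Aqp7 had no reads there and the hormone-sensitive lipase gene Lipe, which other cells also express, made up 338 of the 352. Without Lipe the other 9 markers summed to 14.1, with the lipid droplet coat gene Plin1 at 1.41 and the adipokine gene Adipoq at 2.81. In MS1163.2 those genes stood at 263 and 242; these markers were chosen after their values were seen. MS1166.1 had an equally low adipocyte sum, with Retn and Aqp7 at 0 reads, and the lowest Fasn.

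The milk protein genes separated another tumour. The sum of 8 milk protein genes was 1612663 in MS1349.1, which is 9.23% of its reads (Wilson 95% interval 9.22 to 9.24). It was 129121 in MS1218.2, 81289 in MS1155.3, 25087 in MS1163.2, 42112 in MS1213.1 and 108622 in MS1163.1, and 6494 in MS1210.1 and 4392 in MS1166.1. Beta-casein, Csn2, stood at 420672 in MS1349.1 and at 12.6 to 4146 in the other 7 epithelial tumours. Kappa-casein, Csn3, made up most of the sum in all 5 high-amplified tumours. It stood at 118257 in MS1218.2, 64614 in MS1155.3, 24620 in MS1163.2, 35996 in MS1213.1 and 108442 in MS1163.1. In MS1349.1 Csn3 stood at 114921, below MS1218.2. The tumour with the highest Fasn, Acly, Acaca and Thrsp, MS1349.1, was therefore also the tumour with the highest milk protein sum and the second highest adipocyte sum. MS1210.1, at rank 3 of 8 for Fasn, had a milk protein sum 248-fold below that of MS1349.1 and a Fasn 1.41-fold below it. MS1218.2 had the second highest milk protein sum and the second lowest Fasn.

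MS1349.1 was also highest for the milk fat genes. The sum of 5 genes of milk fat secretion was 57363 in MS1349.1, 22632 in MS1155.3 and 18696 in MS1218.2, and 3522 to 16362 in the other epithelial tumours. MS1210.1 was at 5824, the second lowest. Of 10 sebaceous gland markers, 5 in MS1166.1, 2 or 3 in the other AC(NST) tumours and 1 in each ASQC tumour had no reads. The ASQC libraries were also the deepest, with 23703980 reads counted in MS1210.1 and 23912429 in MS1349.1. The marker sum was 1168 to 2822 over the 8 tumours, most of it from the sterol acyltransferase gene Soat1 (898 to 2629). Scd3 stood at 8.67 to 149 and Cidea at 14.2 to 84.2. The part of adipocytes, alveolar cells or squamous cells in the member levels of MS1349.1 was not tested. MS1210.1, with the lowest adipocyte sum and the second lowest milk protein and milk fat sums, was at rank 1 of 8 for Scd2, 3 for Fasn and Acly, 4 for Scd1 and Thrsp, 5 for Acaca, 7 for Elovl5, Elovl6 and Srebf1 and 8 for Me1.

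**Figure D3:**
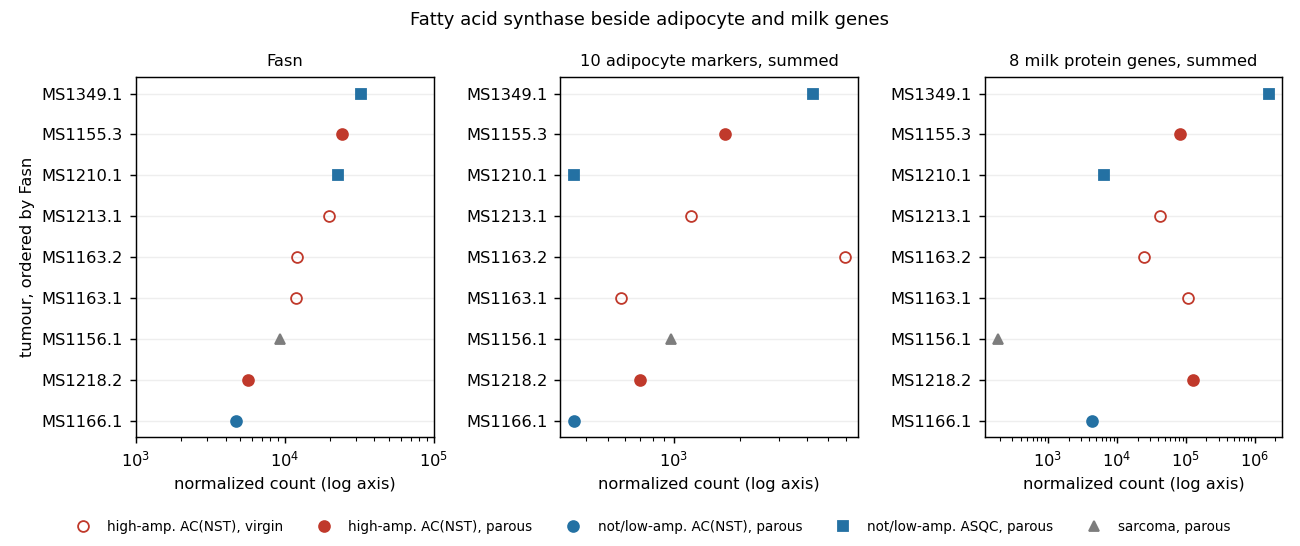
Normalized counts (log axes) of Fasn, of 10 adipocyte markers summed and of 8 milk protein genes summed, 1 point per tumour, with tumours ordered by Fasn; colour gives amplification status, shape the histotype, open symbols the virgin mice. MS1210.1 is the third for Fasn at 22884 with the lowest adipocyte sum, 352, and MS1349.1 is highest for Fasn and for milk protein genes.

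Without the tumours of highest adipocyte content, MS1163.2 and MS1349.1, edgeR called 0 of 10 members in each of the 3 comparisons, with 2, 0 and 0 members at an unadjusted p under 0.05 by amplification, histotype and parity; DESeq2 was not run on this subset. The log2 fold changes by amplification of Acly, Acaca, Fasn and Thrsp then lay at 0.24, 0.38, 0.18 and 2.23. Luminal epithelial markers also differed between groups. The sum of 5 keratin and adhesion genes was 30715 to 48492 in high-amplified and 73976 to 126241 in not/low-amplified tumours, without overlap. By parity the sum did not overlap either, at 30715 to 38205 in virgin and 45943 to 126241 in parous tumours. None of the 5 genes was called by edgeR in either comparison. Of all genes tested, 15.6% did not overlap by amplification and 9.25% by parity. Keratinocyte markers summed to 35.7 to 2875 in high-amplified tumours and 6529 to 57248 in the others. In MS1166.1, at 6529, Krt14 alone made up 6495, with Krt5 at 11.9, Krt10 at 15.5 and Sprr1a at 2.38. Krt5 did not separate the groups, standing at 1392 in the high-amplified MS1155.3. The part of luminal cells and keratinocytes in the member levels was not tested.

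The sarcoma had lower levels of several members and kept others. As it is a single tumour, no test was made. It was below all 8 epithelial tumours for 5 of the 10 members, against 20.8% of all genes tested, and above all 8 for 0, against 21.7%. The members below the range were Acly at 2451, Me1 at 213, Scd1 at 5927, Srebf1 at 3524 and Thrsp at 14.0, the last from 10 reads. Me1 was 0.0595-fold and Thrsp 0.0125-fold the epithelial mean. Fasn at 9282, Acaca at 2365, Scd2 at 19507, Elovl5 at 1466 and Elovl6 at 448 lay inside the epithelial range, and the sarcoma had more Fasn than MS1218.2 and MS1166.1. Its luminal markers summed to 455 and its milk protein genes to 190, against at least 30715 and 4392 in the epithelial tumours, while its 6 fibroblast markers summed to 602658.

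Of the wider pathway, 45 of 48 genes were tested, and none was called by amplification with edgeR. At an unadjusted p under 0.05 there were 10 of the 45, beside 3199 of all 14007 genes tested. DESeq2 called 5 of the 48, Acsl4, Gpat3, Elovl4, Fads1 and Fads2, beside 1587 of all 18484 genes. In the edgeR fit 12 had a log2 fold change above 0 and 33 below, with a median of -0.23 beside 0.02 for all genes. All 6 tested genes of substrate supply, including cytosolic malate dehydrogenase Mdh1, were below 0 (-0.66 to -0.22), none called. Acsl4, which activates arachidonate and was the most abundant of the list, stood at 7798, 17277, 44752, 18656 and 26268 in the high-amplified tumours in the order used above and at 8519, 3416 and 1292 in the others. Its log2 fold change was 2.38 ± 0.74 (SE; edgeR adjusted p = 0.116), and the groups overlapped through MS1218.2 and MS1349.1. Acsl1, the long-chain acyl-CoA synthetase of fat and liver, was highest in MS1349.1 at 12737, against 921 to 2702 in the other 7.

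By histotype edgeR called 1 of the 45 genes of the wider list, Elovl4, beside 0.236% of all genes tested. At an unadjusted p under 0.05 there were 7 of the 45, beside 1221 of all 14007 genes tested. DESeq2 called 2 of the 48, Acsl1 and Elovl4, beside 518 of all 18484 genes. Elovl4, an elongase of very long chain fatty acids used in the skin barrier, stood at 892 in MS1349.1, 1112 in MS1210.1 and 1.93 to 42.5 in the 6 AC(NST) tumours. It rose in ASQC with a log2 fold change of 6.21 ± 0.97 (edgeR adjusted p = 0.0411). The call was made in 5 of 15 alternatives and in 2 of 8 fits that each left out 1 tumour (MS1155.3 or MS1166.1), with adjusted p up to 0.370, while the log2 fold change was at least 5.23. Keratinocyte markers were also highest in these tumours, 57248 in MS1210.1 and 7787 in MS1349.1 against 35.7 to 6529 in AC(NST), and their part in the level of Elovl4 was not tested. The median of the 45 genes by histotype was 0.17, beside 0.56 for the 10 members and -0.08 for all genes. By parity none of the 45 was called by edgeR, and 11 were at an unadjusted p under 0.05, beside 1984 of all 14007 genes tested. DESeq2 called 6 of the 48, beside 511 of all 18484 genes. The median by parity was -0.26, beside -0.19 for the members and -0.10 for all genes.

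Sterol synthesis, the sister pathway driven by SREBP-2, contained 1 called gene by amplification. Fdft1, the squalene synthase gene, stood at 313 in MS1218.2, 223 in MS1155.3, 446 in MS1163.2, 299.5 in MS1213.1 and 514 in MS1163.1 and at 652 in MS1349.1, 1914 in MS1210.1 and 2184 in MS1166.1. It was lower in the high-amplified group without overlap, with a log2 fold change of -2.12 ± 0.41 (edgeR adjusted p = 0.0489). The call held in 4 of 16 alternatives, among them, of the single tumours left out, those without MS1218.2 or MS1349.1, with adjusted p up to 0.355 and fold changes from -2.56 to -1.83. Of the 21 sterol genes tested, 18 were below 0 by amplification, with a median of -0.69, and 19 were above 0 in ASQC, with a median of 0.68. Summed over the 21 genes, MS1210.1 stood highest at 42091. MS1349.1 at 21839 and MS1166.1 at 22742 lay inside the high-amplified range of 12788 to 29177. Fatty acid oxidation genes, of which 13 were tested and none called by edgeR in any of the 3 comparisons, had medians of -0.53 by amplification, 0.40 by histotype and -0.47 by parity. At an unadjusted p under 0.05 there were 5, 3 and 4 of the 13 in these comparisons, beside 3199, 1221 and 1984 of all 14007 genes tested. DESeq2 called 1, 0 and 1 of the 13, beside 1587, 518 and 511 of all 18484 genes. In the oxidation list Cpt1a, the entry step for fatty acids into mitochondria, was 4156 in MS1166.1 and 3131 in MS1210.1 and did not exceed 1957 in the other 6. MS1166.1, lowest for Fasn and Acaca, was thus highest for Cpt1a.

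**Figure D4:**
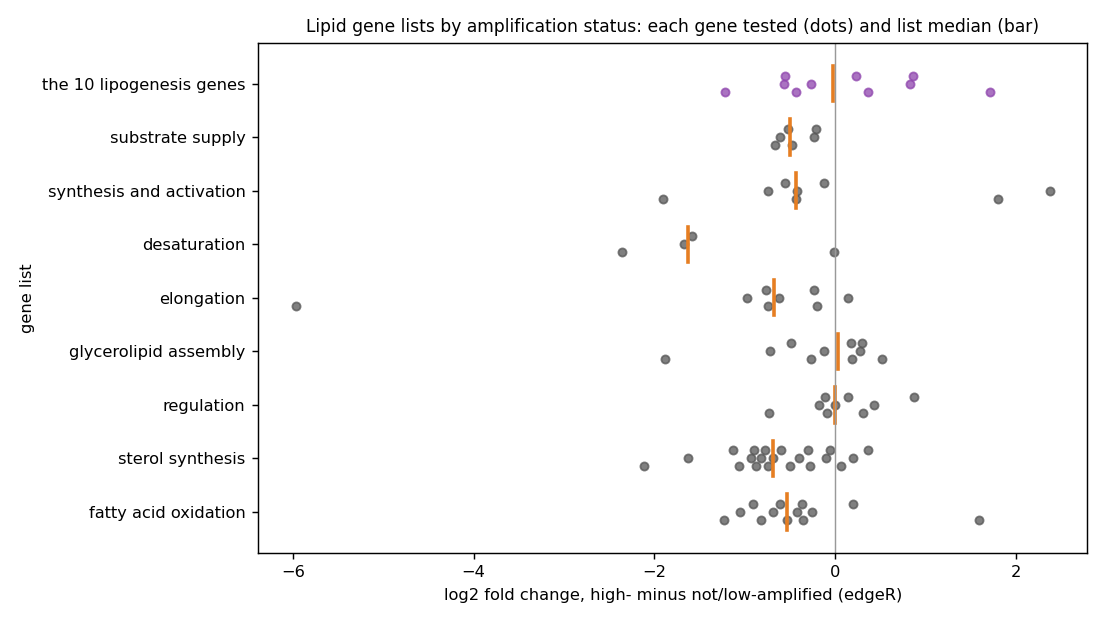
edgeR log2 fold change by amplification status (high-amplified minus not/low-amplified) of every tested gene in the lipid gene lists (dots) with the median of each list (bar). The 10 lipogenesis genes spread around 0 with a median of -0.02, and the sterol synthesis genes have a median of -0.69.

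Depth ranged from 12501225 to 23912429 reads counted on genes, and every member had at least 75 reads in every epithelial tumour, the fewest being for Thrsp. Erbb2 itself stood at 5284 to 105019 in high-amplified and 1532 to 2783 in not/low-amplified tumours, and Mien1 at 3136 to 47600 and 373 to 1073. Both genes separated the groups without overlap, but edgeR called neither.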

How the data were processed

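RNA was measured in 9 snap-frozen mammary tumours by paired, ribosome-depleted RNA-seq on strand-specific libraries. The deposited counts are whole reads per gene, which the authors obtained with HTSeq-count from uniquely aligned reads; the strand setting of the counting is not given in the sources used here. The deposited signal values of the 8 epithelial tumours are these counts divided by a size factor (0.776 to 1.42) from DESeq2, and equal the median-of-ratios factors recomputed here. For the sarcoma a factor of 0.717 was computed against the same 8 tumours.

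Counts were tested with edgeR 4.0.16 (TMM, glmQLFit, glmQLFTest, Benjamini-Hochberg adjustment over the 14007 genes that reached 10 counts in 3 or more of the tumours). A gene was called at an adjusted p under 0.05 and a fold change over 2. The sarcoma was left out of the tests, as in the study. Levels between genes were compared per kilobase of exon (GENCODE M21). Single values were compared by exact two-sided permutation of the tumours, on log2 values with a pseudocount of 1. Shares have Wilson 95% intervals. DESeq2 1.42.0, limma 3.58.1, other scaling, no filter, covariates, summed tumours of the same mouse number and each tumour left out were tried as alternatives, under R 4.3.3 and Python 3.11.15 (numpy 2.4.6, pandas 2.3.3, scipy 1.17.1, matplotlib 3.10.9). The edgeR steps were tested on simulated data.

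The 10 genes and all lists were chosen with earlier results of these data known. All 10 members were named in every tumour; of the other lists, the genes that passed a test and otherwise at most 4 genes of highest mean were named, plus the 5 genes most like Fasn and the 5 most like Scd1. Genes named outside this rule were chosen after their values were seen. Mvd and Acta1 were not matched, and Flg, listed under several identifiers, was not used. Promoters came from RefSeq; those of Scd1 and Scd2 were not used here.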

Additional observations from a re-analysis of the deposited data

Results flagged for a closer look

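In groups of 4 to 10 tumours, a tumour was picked out when its gap to the nearest other tumour was a large share of the range of the group (Dixon's criterion, which chance meets in about 1 in 20 groups). Of 36 groups examined, 6 had such a tumour.

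Elovl6 in MS1155.3 (1669) was far above the other parous tumours, the next of which was at 571. Thrsp in MS1155.3 (2773) was far above the other high-amplified tumours and the other AC(NST) tumours, the next of which in both groups was at 453. The summed milk protein genes in MS1349.1 (1612663) were far above those of the other parous tumours, the next at 129121. The summed adipocyte markers in MS1163.2 (5923) were far above those of the other high-amplified and the other AC(NST) tumours, the next at 1699; its Fasn, at 12164, was at rank 5 of 8.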

How the results depend on the processing

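With DESeq2, 1 member (Srebf1) was called by amplification; no other alternative run called a member in any comparison. The count of all genes called was far less stable. By amplification it was 129 with edgeR, 1587 with DESeq2, 229 without the filter, 31 with tumours of the same mouse number summed, 0 with parity as a covariate, in parous tumours alone or without MS1163.2 and MS1349.1, and 1 (without MS1210.1) to 1255 (without MS1218.2) with single tumours left out. By histotype it was 33, and 518, 14 with limma, 171 without the filter, 18 summed, 0 with amplification as a covariate, 3 without MS1163.2 and MS1349.1 (an alternative chosen after seeing the data), and 4 (without MS1349.1) to 84 (without MS1166.1). By parity it was 0, and 511 with DESeq2, and 0 to 147 (without MS1155.3) with single tumours left out.

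Of the alternative fold changes of members by amplification, histotype and parity, 10, 7 and 19 changed sign; none of these was called. With single tumours left out, the log2 fold changes by amplification spanned -1.003 to 0.12 for Acly, -0.66 to 0.42 for Acaca, -0.90 to 0.11 for Fasn, -0.17 to 0.85 for Scd1 and -2.87 to 1.94 for Thrsp. Those by histotype spanned -1.80 to 0.085 for Me1, -0.20 to 0.73 for Scd1 and -1.28 to 3.56 for Thrsp. Those by parity spanned -1.03 to 0.019 for Acly, -0.29 to 0.29 for Acaca, -0.59 to 0.028 for Fasn, -0.63 to 0.040 for Scd1, -0.13 to 0.53 for Scd2 and -0.56 to 0.071 for Srebf1. Without MS1163.2 and MS1349.1 the signs changed by amplification for Acly (0.24), Acaca (0.38), Fasn (0.18) and Thrsp (2.23), by histotype for Scd1 (-0.13) and Thrsp (-1.51), and by parity for Acly (0.25), Acaca (0.23) and Fasn (0.15). With amplification as a covariate they changed by histotype for Me1 (0.60) and Srebf1 (0.48) and by parity for Acaca (0.13) and Elovl6 (-0.049). By parity they also changed with limma for Acaca (0.077), Fasn (0.055) and Srebf1 (0.032) and with summed tumours for Scd2 (-0.14). The cause was not tested. No paired analysis was possible because, by the mouse numbers in the labels, no mouse gave tumours to both groups of a comparison. Standard errors of the member fold changes by amplification ran from 0.24 (Elovl5) to 1.29 (Thrsp) on the log2 scale. Differences within these errors were not detectable with this number of tumours, and differences well beyond them could also be missed. Srebf1, at 1.72 ± 0.54, was not called by edgeR.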

Other observations

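The desaturases and elongases of polyunsaturated fatty acids had another order across tumours than Fasn; they were picked out after their values were seen. Fads2, the delta-6 desaturase, stood at 912 in MS1218.2, 1283 in MS1155.3, 374 in MS1163.2, 790 in MS1213.1 and 341 in MS1163.1, and at 1479 in MS1349.1, 2006.6 in MS1210.1 and 8164 in MS1166.1. Fads1, the delta-5 desaturase, stood at 1181, 2234, 465, 859 and 334 in the same order of high-amplified tumours and at 2648, 2165 and 5099 in the not/low-amplified ones. MS1166.1, the epithelial tumour with the lowest Fasn, Acaca and Scd1, was highest for both genes. The amplification groups did not overlap for Fads2. The log2 fold change by amplification was -2.35 ± 0.61 for Fads2 (edgeR adjusted p = 0.0824) and -1.68 ± 0.57 for Fads1 (adjusted p = 0.135). Neither was called by edgeR, while DESeq2 called both. By parity the groups did not overlap for Fads1, Fads2 and Fads3, against 9.25% of all genes tested. DESeq2 called each of these genes by parity, and edgeR called none of them. In the sarcoma Fads1 stood at 4085, above 7 of the 8 epithelial tumours.

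The tumours MS1163.1 and MS1163.2, which carry the same mouse number, were close for Fasn (11937 and 12164), Acly (5487 and 5738), Scd2 (23254 and 23541) and Elovl5 (2146 and 2305). They differed for Srebf1 (13492 and 5362), Thrsp (209 and 93.2) and Scd1 (14153 and 23744), and their adipocyte marker sums were 578 and 5923. Skeletal muscle markers summed to 10.5 in MS1163.1 and 2551 in MS1163.2.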
